A study of Mus musculus with 22 samples.

Results

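The genes described here encode the proteins of the cytosolic ribosome. They are the 76 genes of the deposited expression table whose symbols are Rps or Rpl with a number (and at most the letter a, x or y), or Rplp0, Rplp1, Rplp2 or Rpsa, out of 23997 genes in all. Of these, 30 (symbols starting Rps) belong to the small subunit and 46 (symbols starting Rpl) to the large subunit. Ribosomal protein S6 kinases and the mitochondrial ribosomal proteins are not among them. All 76 genes passed the filter on low values in every comparison, and all 76 were found in the GENCODE M21 annotation of GRCm38, spread over 19 chromosomes.

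The study sequenced total RNA from the colon of wild type BALB/c mice in 22 libraries. The n of each group below counts libraries, and the labels do not say that each is a separate mouse. The mice of all groups were 5 weeks old at the start and drank their assigned water for 3 weeks. Controls (CON, n = 8) had distilled water throughout. DSS mice (n = 5) had distilled water as well and were given dextran sulfate sodium at 5% for 1 week, a compound that damages the lining of the colon and serves as a model of colitis. HMLS mice (n = 4) and TM mice (n = 5) drank 1 deep sea water each, known here only by those abbreviations, and were likewise given 5% dextran sulfate sodium for 1 week. No group drank a deep sea water without dextran sulfate sodium, and the tissue is whole colon, so fewer cells of a type and less RNA per cell cannot be told apart in any of these values.

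A ribosome consists of a small subunit, which reads the messenger RNA, and a large subunit, which joins the amino acids. Cells make the ribosomal proteins in matched amounts, because a protein that finds no place in a subunit is degraded. Most of their messenger RNAs begin with an unbroken run of pyrimidines (C and U) at the cap, called the 5′ terminal oligopyrimidine tract (5′TOP), through which mTOR signalling and the protein Larp1 control their translation and stability. Dividing crypt cells and antibody-secreting cells of the gut are known for high ribosome production.

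Values are FPKM, which are fragments normalised to transcript length and to the mapped fragments of the library, so levels can be compared between genes. Libraries held 48089882 to 68733410 reads. The percent of reads mapped ranged from 89.9 to 91.9 among controls, from 82.3 to 88.9 with DSS, from 88.8 to 90.5 with HMLS and from 89.5 to 92.7 with TM, so every DSS library mapped less well than every CON library. Library DSS 7 stood apart: it had the lowest value of all 22 libraries for 44 of the 76 genes. TM 6 had the highest value for 37 genes. Marker genes of colonic epithelium were present in every group (the summed level of 15 genes was 13360 to 20060 FPKM).

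Runs of pyrimidines can be looked for in the reference sequence around the start of transcription. A run that lies before the start is not part of the messenger RNA. RefSeq's GRCm38.p6 promoter table held 56 of the 76 genes, and in 40 of them (71.4%) at least 1 listed start had an unbroken run of 6 or more C or T on the coding strand within 20 bases of it. Among all 27025 genes of that table the share was 41.2%. A run of 6 or more A or G, the same motif on the opposite strand, was found in 12 of the 56 genes (21.4%) and in 43.8% of all genes. The sequence CCGGAAG, which contains the core bound by ETS family factors, was present on either strand of the 300 bases around a start in 23 of the 56 genes (41.1%) and in 9.9% of all genes. The lines below show the genes on which the results turn: first genes that fell in colitis, then genes that did not. Each shows 15 bases before the start and 15 bases from it on, 5′ to 3′, and capitals mark runs of 6 or more C or T. For Rpl35a the table lists 3 starts, of which the 1 shown has a run and the other two have none. They are reference sequence, not sequence of the BALB/c mice.
Rpl35a, chr16:33056467-33056496, + strand: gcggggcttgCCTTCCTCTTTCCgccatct
Rps18, chr17:33955651-33955680, - strand: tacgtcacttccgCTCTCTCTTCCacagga
Rpl39, chrX:37085208-37085237, - strand: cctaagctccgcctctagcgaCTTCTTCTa
Rpl9, chr5:65391417-65391446, - strand: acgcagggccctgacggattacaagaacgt
Rpl28, chr7:4792950-4792979, + strand: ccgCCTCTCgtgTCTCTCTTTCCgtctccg
Rps9, chr7:3704026-3704055, + strand: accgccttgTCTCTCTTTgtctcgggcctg
Rplp2, chr7:141447636-141447665, + strand: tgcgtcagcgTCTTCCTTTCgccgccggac
Rps16, chr7:28350674-28350703, + strand: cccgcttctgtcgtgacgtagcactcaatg
Runs were thus present both in genes that fell (Rpl35a, Rps18, Rpl39) and in genes that did not (Rpl28, Rps9, Rplp2), and no run lay in the windows shown for Rpl9 and Rps16.

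Together the 76 genes made up a median 8.66% of the summed FPKM of all genes in CON (lowest 7.66%, highest 9.17%). In DSS libraries 1, 2, 5, 6 and 7 the share was 7.41%, 6.88%, 7.11%, 6.75% and 5.82%. All 5 DSS libraries lay below all 8 CON libraries. The share in HMLS libraries 3, 6, 7 and 8 was 7.71%, 7.08%, 6.53% and 6.79%, and only HMLS 3 reached the CON range, at the level of CON 8. In TM libraries 3, 5, 6, 7 and 8 it was 9.46%, 8.20%, 9.93%, 6.90% and 7.67%. TM 3 and TM 6 lay above every CON library, TM 5 and TM 8 within the CON range through CON 8 alone, and TM 7 within the DSS range. Genes for small RNAs and mitochondrial transcripts took 19.6% of the sum in CON 8, the largest share of any library, which lowers the share of all other genes there.

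**Figure D1:**
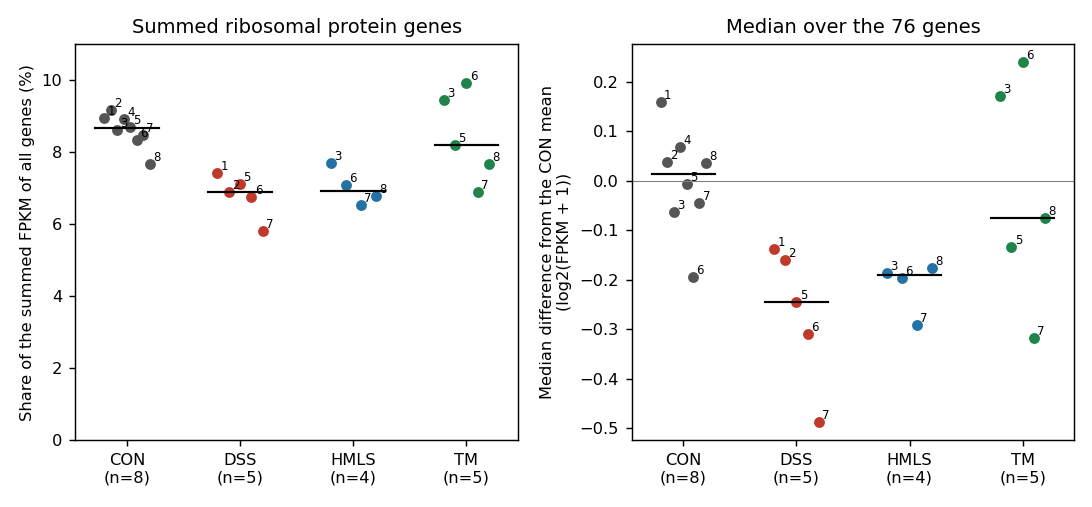
The left panel gives the share of the summed FPKM taken by the 76 genes in each library (percent), and the right panel the median over the genes of the difference from the CON mean (log2(FPKM + 1)). Points are libraries with their replicate numbers, and bars are group medians. The 5 DSS libraries lie below the 8 CON libraries on the left, and the TM libraries spread from 6.90% to 9.93%.

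Levels differed widely among the genes. The highest medians over 22 libraries were those of Rpl41, which encodes the smallest ribosomal protein (1709 FPKM), Rps12 (1218 FPKM), Rps29 (1122 FPKM) and the acidic stalk proteins Rplp1 (1106 FPKM) and Rplp2 (865 FPKM). The lowest medians were those of Rps15a (36.9 FPKM), Rpl34 (35.0 FPKM), Rpl26 (21.6 FPKM), Rpl30 (16.6 FPKM) and Rps27 (5.22 FPKM). Since each ribosome holds 1 copy of nearly every one of these proteins, low values are of interest for how reads were assigned. In the annotation 59 of the 76 genes have a named pseudogene. Of the highest genes above, Rps12 has 24, Rps29 has 1, Rplp1 has 1, and Rpl41 and Rplp2 have 0. Of the lowest, Rps15a has 8, Rpl34 has 2, Rpl26 has 6, Rpl30 has 9 and Rps27 has 1. Whether the level goes with the number of pseudogenes was not tested. Close copies were looked at only for Rps27 and Rpl34.

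For some of these low genes a close copy was listed at a far higher level. Rps27, a zinc finger protein of the small subunit, was at 2.11 to 8.62 FPKM over the 22 libraries, while Rps27rt, an intronless gene on chromosome 9 (GRCm38, 114982366 to 114982739), was at 1021 to 2051 FPKM. Their 255 coding bases are identical in the reference. The first 60 coding bases of each, shown to let a reader see this, are as follows.
Rps27: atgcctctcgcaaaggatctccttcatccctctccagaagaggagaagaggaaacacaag
Rps27rt: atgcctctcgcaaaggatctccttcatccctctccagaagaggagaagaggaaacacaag
Rps27 took 0.133% to 0.660% of the pair's summed FPKM. Rpl34 and the processed pseudogene Rpl34-ps1, at 319 to 675 FPKM, share 352 of 354 coding bases, and Rpl34 took 4.31% to 17.2% of that pair. In the 60 coding bases below, the capital marks the single base that differs.
Rpl34: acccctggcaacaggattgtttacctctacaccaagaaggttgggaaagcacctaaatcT
Rpl34-ps1: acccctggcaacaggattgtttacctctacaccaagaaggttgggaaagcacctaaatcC
The sources used here do not say how reads were divided between such copies, so the values of Rps27 and Rpl34 are uncertain, and those of other genes with near-identical copies may be.

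**Figure D2:**
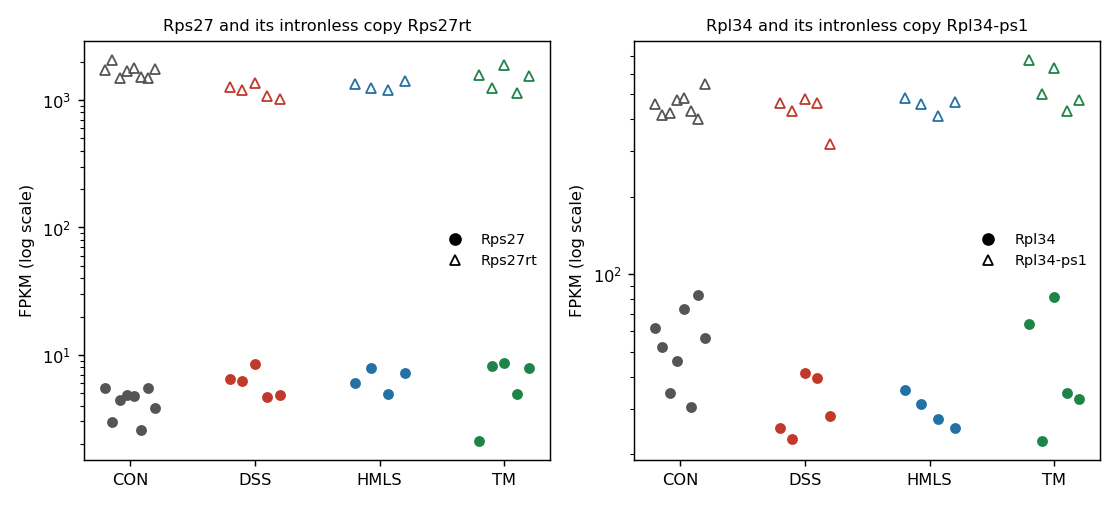
FPKM of Rps27 and Rpl34 (filled circles) and of their intronless copies (open triangles) in each library, by group, on a log axis. Rps27rt lies at 1021 FPKM or more in every library, and Rps27 at 8.62 FPKM or less.

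With dextran sulfate sodium alone, the ribosomal protein genes were lower in the colon than in the water controls. At an adjusted p under 0.05 (limma, Benjamini-Hochberg over all 13483 genes tested), 32 of the 76 genes fell and 0 rose. Over all genes tested, 13.1% fell and 14.0% rose. The members that fell are 42.1% of the 76. Of all 76 genes, 69 had a difference below 0 and 7 above it (49.2% of all genes tested were above 0), and the median difference was -0.26 on the log2(FPKM + 1) scale, against -0.01 for all genes tested, which corresponds to a median fall of 16.6%. The falls were spread over both subunits: 12 of 30 small subunit genes and 20 of 46 large subunit genes fell, with median log2 differences of -0.24 and -0.27. For 11 genes the highest DSS library was under the lowest CON library (3.72% of all genes tested). These were Rpl35a, Rpl39, Rpl9 and Rps18, described next, and Rpl7, Rps4x, Rpl4, Rpl6, Rps7, Rpl24 and Rpl37.

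Rpl35a, a large subunit protein whose gene is mutated in some families with Diamond-Blackfan anaemia, showed one of the largest falls. It was at 437 to 599 FPKM in CON (median 502) and at 328, 325, 365, 299 and 246 FPKM in DSS libraries 1, 2, 5, 6 and 7. No DSS library reached the lowest control, and the log2 difference was -0.68 ± 0.11 (SE, adjusted p = 0.001327). Rpl39, which lines the exit tunnel of the large subunit, was at 651 to 837 FPKM in CON (median 750) and at 560, 499.6, 504, 506 and 344 FPKM in the DSS libraries. The groups did not overlap, and the difference was -0.64 ± 0.12 (SE, adjusted p = 0.002413). Rpl9 was at 485 to 619 FPKM in CON (median 580) and at 378, 398, 397, 387 and 269 FPKM in DSS. It too fell without overlap, by 0.62 ± 0.11 on the log2 scale (SE, adjusted p = 0.00211).

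Rps18, a protein of the small subunit's head whose transcript often serves as a reference in quantitative PCR, was at 506 to 681 FPKM in CON (median 625). It was at 414, 491, 470, 447 and 355 FPKM in DSS, below every control, with a log2 difference of -0.52 ± 0.11 (SE, adjusted p = 0.003415). Rpl36, at 398 to 614 FPKM in CON (median 565), was at 488, 363, 373, 349 and 275 FPKM in DSS. Its groups overlapped through DSS 1 and CON 6, and the difference was -0.58 ± 0.14 (SE, adjusted p = 0.007138). Rpl34 had the largest fall of a gene that passed, -0.75 ± 0.23 (SE, adjusted p = 0.02592), but its call ended without DSS 1, DSS 2 or DSS 7 (adjusted p = 0.05073, 0.06676 and 0.0591), and its copy Rpl34-ps1 had a difference of -0.08 ± 0.12 (adjusted p = 0.6243).

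Among genes known beyond the ribosome, Rps19, the gene most often mutated in Diamond-Blackfan anaemia, fell by 0.42 ± 0.12 on the log2 scale (SE, adjusted p = 0.02323). Rps3, at the messenger RNA entry channel, fell by 0.32 ± 0.11 (adjusted p = 0.03841) and Rpl10a by 0.33 ± 0.12 (adjusted p = 0.04388). Rpl5 and Rpl11, which with the ribosomal RNA they bind hold the p53 inhibitor Mdm2 when ribosome assembly fails, had differences of -0.24 ± 0.11 and -0.27 ± 0.10 and did not pass (adjusted p = 0.1055 and 0.0505). Rps6, the substrate of the S6 kinases, had a difference of -0.29 ± 0.11 (adjusted p = 0.05891). Rpl22 was at -0.25 ± 0.09 (adjusted p = 0.05509), Rpl13a at -0.23 ± 0.11 (adjusted p = 0.1134) and Rps27a, made as a fusion with ubiquitin, at -0.21 ± 0.12 (adjusted p = 0.2147). None of these 6 genes is therefore counted among the falls.

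None of the 3 stalk proteins, which recruit elongation factors, passed. Rplp0 was at 550 to 824 FPKM in CON (median 696) and at 631, 658, 584, 692 and 512 FPKM in DSS. The groups overlapped, with a difference of -0.19 ± 0.11 (SE, adjusted p = 0.2085). Rplp1 was at -0.15 ± 0.12 (adjusted p = 0.3917) and Rplp2 at 0.16 ± 0.12 (adjusted p = 0.3104). Rpsa (-0.17 ± 0.11, adjusted p = 0.241), Rpl3 beside the peptidyl transferase centre (-0.18 ± 0.09, adjusted p = 0.1529) and Rpl41 (-0.08 ± 0.13, adjusted p = 0.6525) did not pass either.

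**Figure D3:**
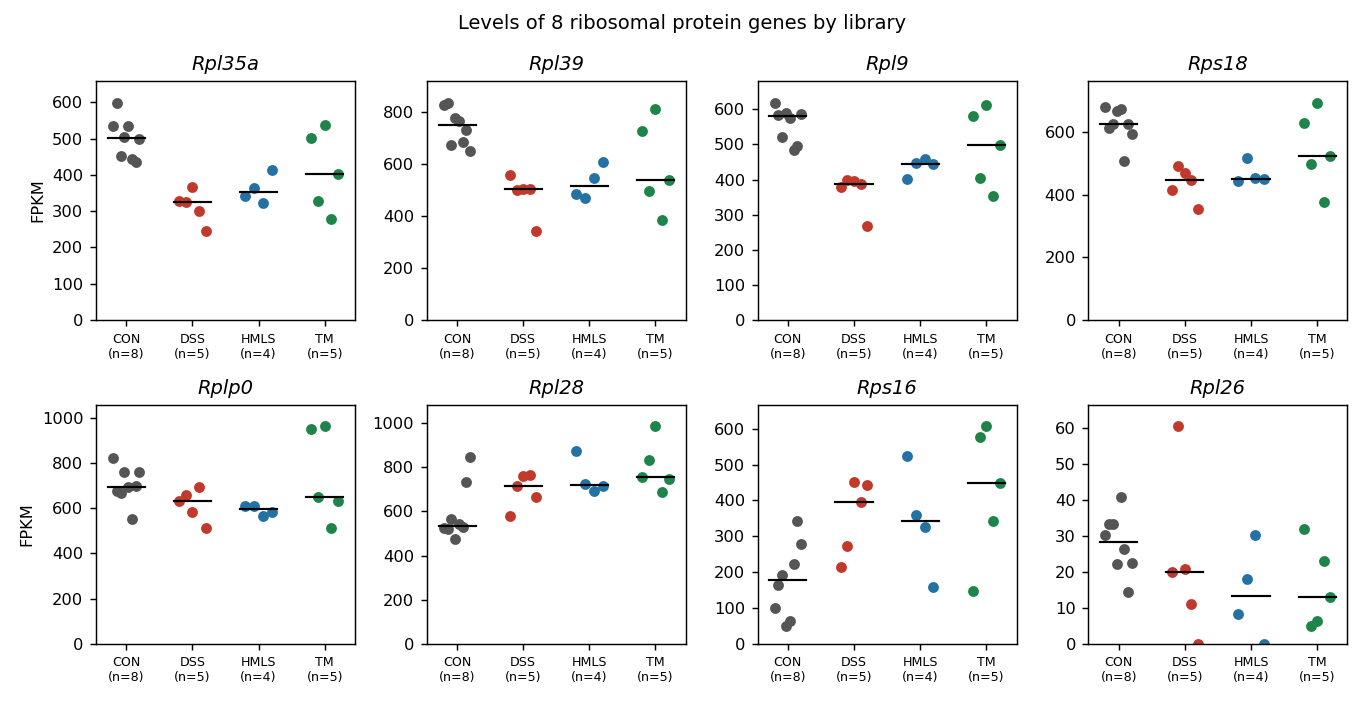
FPKM of 8 ribosomal protein genes in each library (points) with group medians (bars), on axes that start at 0. Rpl35a, Rpl39, Rpl9 and Rps18 have all 5 DSS libraries below all 8 CON libraries, Rplp0 overlaps, Rpl28 and Rps16 lie higher in most colitis libraries, and Rpl26 is listed at 0 in DSS 7 and HMLS 8.

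The number of falls in DSS rested in part on 1 library and moved with mapping. Without DSS 7, 15 genes fell and the median difference was -0.21, while over all genes 1217 of 13399 fell. With the percent of mapped reads as a covariate 0 genes fell and the median was -0.07, and over all genes the calls then numbered 4 higher and 22 lower. Mapped percent and group do not overlap between DSS and CON, so the 2 cannot be told apart here.

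Marker genes of several cell types were also lower in DSS, where 13.1% of all genes tested fell and 14.0% rose. In the list of crypt stem and cycling cells, 8 of 13 tested genes fell (summed level 124 to 249 FPKM in CON, 68.0 to 187 FPKM in DSS). Of the B cell markers 4 of 9 fell (5.78 to 65.5 FPKM in CON, 2.61 to 18.2 FPKM in DSS), of the plasma cell markers 4 of 8 fell and 1 rose (206 to 383 and 165 to 282 FPKM), and of the fibroblast markers 8 of 10 fell (337 to 494 and 114 to 272 FPKM). Of the adipocyte markers 7 of 9 fell and 1 rose (120.1 to 1455 and 109 to 192 FPKM), and of the smooth muscle markers 4 of 10 fell (1571 to 3072 and 709 to 2776 FPKM). Neutrophil markers rose in 3 of 3 tested genes (1.04 to 2.70 and 3.23 to 72.9 FPKM). Macrophage markers fell in 2 of 9 genes, endothelial markers in 5 of 10 and T cell markers in 1 of 6. Of the epithelial markers 1 of 15 fell and 3 rose. The part of these cells in the fall of ribosomal protein genes was not tested.

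With HMLS water and dextran sulfate sodium, 21 of the 76 genes fell against CON and 2 rose. Of all 13400 genes tested, 16.6% fell and 17.5% rose, while the falls are 27.6% of the ribosomal protein genes. The median difference was -0.22 (all genes: 0.00), and 66 of 76 genes lay below 0 and 10 above it (50.2% of all genes were above 0). The falls comprised 7 of 30 small subunit and 14 of 46 large subunit genes. In 13 genes the groups were apart with HMLS lower (7.21% of all genes tested), and 12 of these 13 encode large subunit proteins, as do 46 of the 76. The median differences were -0.19 for the small and -0.22 for the large subunit. A difference between the subunits was not tested.

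Rpl12, which forms the base of the stalk, was at 466 to 687 FPKM in CON (median 579) and at 446, 402, 376 and 442 FPKM in HMLS libraries 3, 6, 7 and 8. The groups did not overlap, and the difference was -0.47 ± 0.11 (SE, adjusted p = 0.005225). Rpl29 was at 237 to 349 FPKM in CON (median 303) and at 237, 219, 181 and 220 FPKM in HMLS (-0.47 ± 0.12, adjusted p = 0.006921). Its groups did not overlap either, though HMLS 3 lay just under CON 6. Rpl39, at 486, 472, 547 and 610 FPKM, lay below every control (-0.49 ± 0.11, adjusted p = 0.003431), as did Rpl35a at 343, 364, 321 and 413 FPKM (-0.47 ± 0.11, adjusted p = 0.005122). Rpl36 (-0.49 ± 0.13, adjusted p = 0.01207) and Rpl34 (-0.79 ± 0.23, adjusted p = 0.01572) completed the 6 largest falls. Without HMLS 8 the call of Rpl34 ended (adjusted p = 0.05786).

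Both rises were near the threshold. Rplp2 was at 637 to 930 FPKM in CON (median 756) and at 984, 957, 866 and 954 FPKM in HMLS. CON 8 lay within the HMLS range, and the difference of 0.29 ± 0.11 (SE, adjusted p = 0.04698) lost its call when any 1 of CON 2 to CON 7, HMLS 3, HMLS 6 or HMLS 8 was left out (adjusted p up to 0.1041). Rps27 had a difference of 0.52 ± 0.17 (adjusted p = 0.02909), which lost its call without HMLS 6 or HMLS 8 (adjusted p = 0.08953 and 0.08861). The identical and far more abundant copy Rps27rt fell, by 0.38 ± 0.11 (adjusted p = 0.01504). Crypt stem and cycling markers fell in 10 of 13 genes, B cell markers in 6 of 9, fibroblast markers in 9 of 10 and macrophage markers in 5 of 9. Summed levels in HMLS were 54.4 to 116, 0.853 to 7.73, 155 to 218 and 36.5 to 110 FPKM. Smooth muscle markers fell in 0 of 10 genes, and of the adipocyte markers 1 of 9 fell and 1 rose. Endothelial markers fell in 5 of 10 genes and T cell markers in 2 of 6. Of all genes tested in HMLS, 16.6% fell and 17.5% rose. Of the plasma cell markers 5 of 8 fell and 1 rose. Of the epithelial markers 2 of 15 fell and 3 rose. Neutrophil markers rose in 1 of 1 tested gene. Their part in the result was not tested.

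With TM water and dextran sulfate sodium, the ribosomal protein genes lay about as often above CON as below it. Of the 76 genes 0 fell and 2 rose at an adjusted p under 0.05, where 11.8% of all 13485 genes tested fell and 14.3% rose. The median difference was -0.04 (all genes: 0.01), with 37 genes above 0 (51.0% of all genes were) and 39 below. At an unadjusted p under 0.05 there were 9 genes (39.2% of all genes), 6 of them higher. In 0 genes did the groups lie apart, where 3.40% of all genes did with TM lower and 4.66% with TM higher. Rpl28, a large subunit protein absent from baker's yeast, was at 477 to 846 FPKM in CON (median 535) and at 755, 834, 985, 689 and 748 FPKM in TM libraries 3, 5, 6, 7 and 8. CON 7 and CON 8 lay within the TM range, and Rpl28 rose by 0.45 ± 0.14 (SE, adjusted p = 0.03024). Rps9, which supports accurate decoding, was at 671 to 881 FPKM in CON (median 725) and at 934, 909, 960, 802 and 852 FPKM in TM, with only CON 8 inside the TM range (0.27 ± 0.09, adjusted p = 0.03897).

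Both calls were close to the threshold. That of Rpl28 ended without CON 1, CON 2, CON 4, CON 5, TM 5 or TM 6 (adjusted p up to 0.07845), and that of Rps9 without any 1 of CON 1 to CON 7, TM 3, TM 5, TM 6 or TM 8 (adjusted p up to 0.08497). Without CON 8 the number of rises was 5. The genes next in line were Rplp2 (0.30 ± 0.11, adjusted p = 0.05316), Rpl26 (-1.02 ± 0.38, adjusted p = 0.06497), Rpl39 (-0.37 ± 0.15, adjusted p = 0.08476) and Rpl35a (-0.33 ± 0.15, adjusted p = 0.1189). Rpl39 was at 727, 498, 812, 386 and 539 FPKM in TM, so that TM 3 and TM 6 lay in the control range and the other 3 libraries below it. Rpl35a showed the same order of libraries, at 502, 329, 536, 277 and 402 FPKM. Without TM 6 both fell (adjusted p = 0.02267 for Rpl39 and 0.04351 for Rpl35a), and Rpl39 fell without TM 3 as well (adjusted p = 0.03689). Rplp2 rose without CON 8 or TM 7 (adjusted p = 0.02489 and 0.03268), and Rpl26 fell without CON 7, TM 3 or TM 7 (adjusted p = 0.04273, 0.01356 and 0.04861). Crypt stem and cycling markers fell in TM in 7 of 13 genes (75.6 to 182 FPKM), fibroblast markers in 5 of 10 (181 to 574 FPKM), smooth muscle markers in 5 of 10 (1090 to 2282 FPKM) and B cell markers in 0 of 9 (7.79 to 37.9 FPKM). Of the adipocyte markers 7 of 9 fell and 1 rose (107 to 196 FPKM), and neutrophil markers rose in 3 of 3 tested genes (6.17 to 97.0 FPKM over 9 listed). Of the macrophage markers 1 of 9 fell and 1 rose, and of the plasma cell markers 0 of 8 fell and 1 rose. Endothelial markers fell in 1 of 10 genes and T cell markers in 0 of 6. Of all genes tested in TM, 11.8% fell and 14.3% rose. Of the epithelial markers 2 of 15 fell and 4 rose. Their part in the result was not tested.

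**Figure D4:**
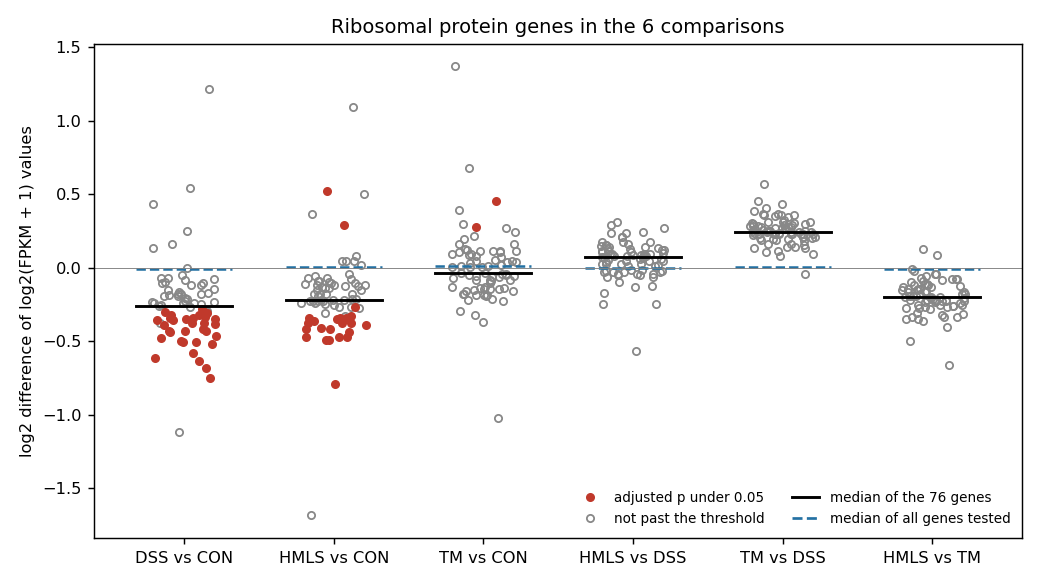
The log2 difference of each of the 76 genes (points) in the 6 comparisons, with the median of the 76 genes (solid bar) and of all genes tested (dashed bar). Filled points passed an adjusted p under 0.05, and the medians of the first 3 columns are -0.26, -0.22 and -0.04.

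Among the colitis groups themselves 0 ribosomal protein genes passed in any of the 3 comparisons by limma, and 0.00% of all 13341 genes did. Between TM and DSS, 75 of 76 genes were above 0 (50.8% of all genes tested were), with a median of 0.25 (all genes: 0.00). At an unadjusted p under 0.05 there were 18 genes, all higher in TM, against 2.75% of all genes, but every adjusted p was 1.0. Rpl37 was at 224, 233, 227, 231 and 179 FPKM in DSS and at 268, 265, 321, 251 and 291 FPKM in TM. All TM libraries lay above all DSS libraries for Rpl37, and for Rps26 and Rps28 as well (0.300% of all genes did), with a difference of 0.35 ± 0.11 for Rpl37. Rpl11 was at 0.36 ± 0.12 and Rps21 at 0.57 ± 0.20. Rps27 was the only gene below 0 (-0.04 ± 0.27). The median was 0.19 without DSS 7, 0.19 without TM 6 and 0.33 without TM 7, and -0.02, with 34 of 76 genes above 0, with the mapped percent as a covariate.

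Between HMLS and DSS, 54 of 76 genes were above 0 (49.8% of all genes), with a median of 0.07 (all genes: 0.00). Only Rpl5 had an unadjusted p under 0.05 (5.55% of all genes did), at 0.29 ± 0.13 (adjusted p = 0.8494). Rpl37 (0.24 ± 0.12, adjusted p = 0.8494) and Rpl17 (0.24 ± 0.13, adjusted p = 0.8499) followed, and on the lower side were Rpl41 (-0.25 ± 0.15), Rps2 (-0.25 ± 0.15) and Rpl29 (-0.18 ± 0.18). Every HMLS library lay above every DSS library for Rpl9 and Rpl37 (0.562% of all genes). Without DSS 7 the median was 0.00, so the small shift rests on that library. With the mapped percent as a covariate the direction turned, with a median of -0.11 and 11 of 76 genes above 0.

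Between HMLS and TM, 74 of 76 genes were lower in HMLS (48.4% of all genes were higher), with a median of -0.20 (all genes: -0.01) and 6 genes at an unadjusted p under 0.05 (9.44% of all genes). Rps26, which lies where the messenger RNA leaves the small subunit, was at -0.35 ± 0.13 (adjusted p = 0.4557), Rpl41 at -0.36 ± 0.15 (adjusted p = 0.4855) and Rps2 at -0.35 ± 0.15 (adjusted p = 0.5061). Rpl5 (0.09 ± 0.13) and Rps27 (0.13 ± 0.29) were the 2 genes above 0. With the mapped percent as a covariate the median was -0.12, with 12 of 76 genes above 0. By limma, 1 gene then had an unadjusted p under 0.05 (1007 of all 13341 genes did). The 3 comparisons share libraries, and they share the DSS treatment, so a common direction among them is not separate evidence.

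The genes moved largely together from library to library. Over the 8 CON libraries the median correlation between pairs of ribosomal protein genes was 0.528 (2850 pairs), and over the 14 colitis libraries with group means removed it was 0.639, as a description of libraries that share their depth and scaling. Rps16 had the lowest median correlation with the other genes, -0.42 in CON and -0.22 in colitis. Medians below 0 were also those of Rps26 (-0.27), Rpl28 (-0.07) and Rps29 (-0.01) in CON and of Rpl30 (-0.12) in colitis. Rps16, which contacts the transfer RNA in the small subunit, ranged from 49.3 to 342 FPKM in CON (median 178), one of the 2 widest spreads along with Rpl30. It was at 215, 273, 451, 396 and 443 FPKM in DSS, at 523, 358, 327 and 158 FPKM in HMLS and at 148, 576, 607, 342 and 450 FPKM in TM. The groups overlapped, and the differences from CON of 1.21 ± 0.43, 1.09 ± 0.53 and 1.37 ± 0.49 did not pass (adjusted p = 0.05038, 0.1278 and 0.05666). Rpl30 was at 7.89 to 19.9 FPKM in CON (median 11.4) and had differences of 0.54 ± 0.25, 0.50 ± 0.29 and 0.68 ± 0.25, none of which passed. Rpl26, at 14.5 to 41.0 FPKM in CON, was listed at 0 in DSS 7 and HMLS 8 and at 60.6 FPKM in DSS 2, and its differences have SEs of 0.38 to 0.75. The steadiest genes in CON were Rpl11 (427 to 481 FPKM) and Rpl35 (499 to 581 FPKM).

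The median SD of the 76 genes on the log2 scale was 0.154 among controls, 0.196 with DSS, 0.120 with HMLS and 0.264 with TM. For the 624 genes with a CON median of at least 100 FPKM it was 0.212, 0.274, 0.211 and 0.244. This set includes most of the 76 genes themselves. The median SD of the 76 was smaller than that of the set in CON, DSS and HMLS and larger in TM. Among the TM libraries TM 3 and TM 6 lay high and TM 7 low.

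**Figure D5:**
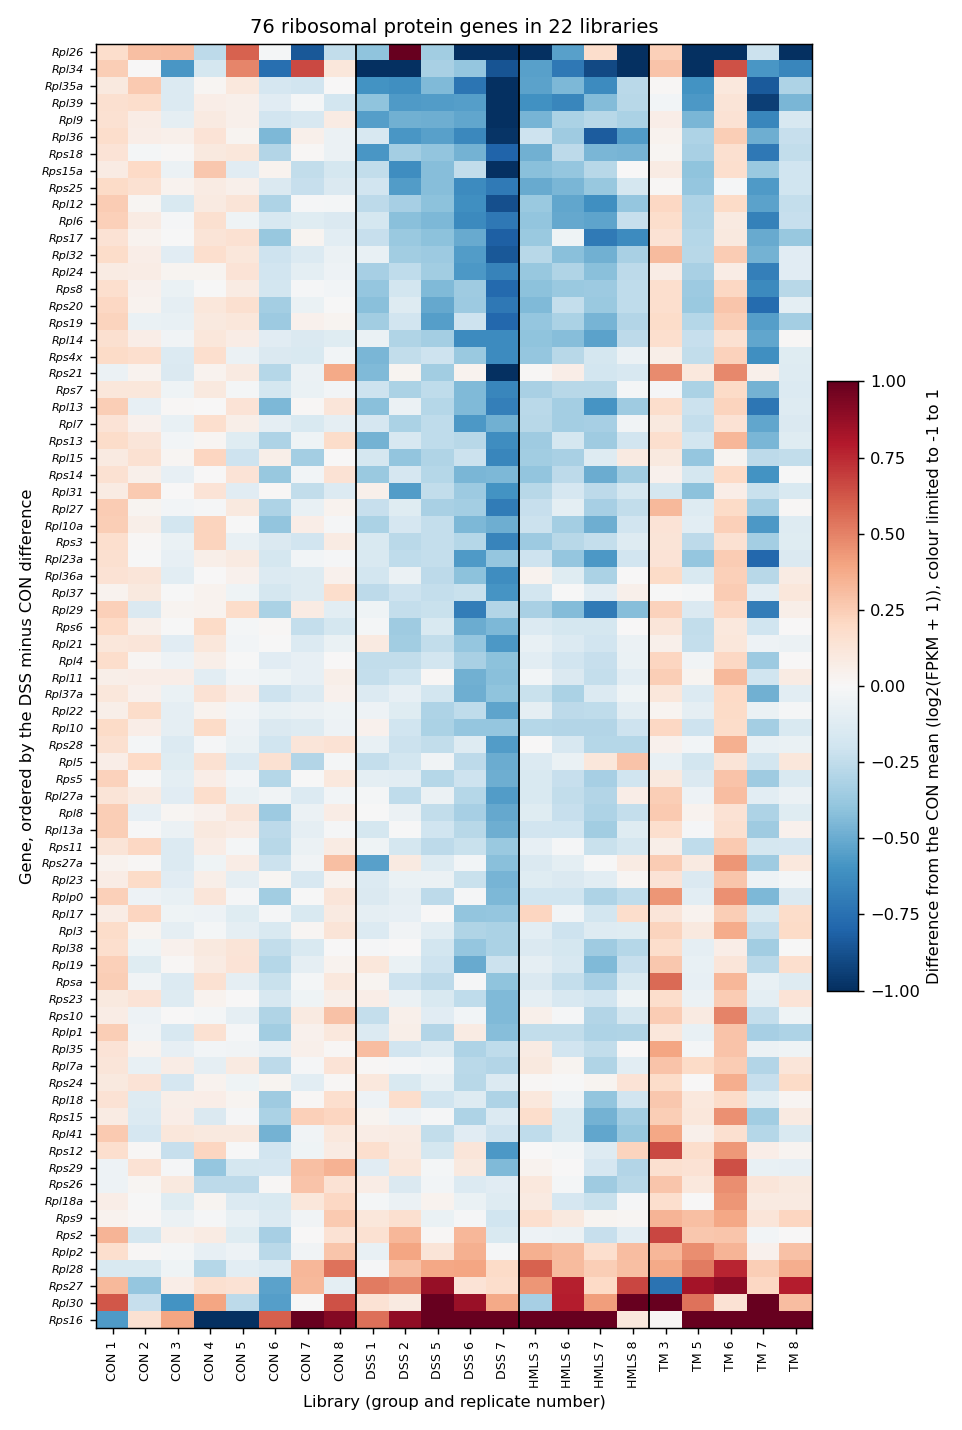
Difference of each gene (rows, ordered by the DSS minus CON difference) from its CON mean in each library (columns), on the log2(FPKM + 1) scale with the colour limited to -1 to 1. Most rows are blue in DSS and HMLS, TM 3 and TM 6 are mostly red, TM 7 is mostly blue, and Rps16, Rpl30 and Rps27 depart from the other rows.

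The sequence features at the start were set beside the falls. In DSS vs CON, 17 of the 40 genes with a pyrimidine run within 20 bases of a listed start fell (median -0.25). Of the 16 genes without such a run, 7 fell (median -0.28). The run can lie wholly before the start, so this is not a split by 5′TOP. For CCGGAAG, 9 of 23 genes with it fell (median -0.29) and 15 of 33 without (median -0.25). Across the 76 genes Spearman's rho of the DSS difference was 0.16 with the CON level, -0.03 with the coding length and -0.03 with the number of named pseudogenes, given as descriptions.

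Ribosomal proteins that the naming rule leaves out were listed separately. For this and the following lists the background over all genes tested was 14.0% rising and 13.1% falling in DSS, 17.5% and 16.6% in HMLS, and 14.3% and 11.8% in TM. Of 9 such genes tested, 4 fell in DSS, 4 fell and 1 rose in HMLS, and 0 passed in TM, with medians of -0.34, -0.38 and -0.16. Rps3a1, a small subunit protein that is in neither list, was at 451 to 739 FPKM and did not pass, with differences of -0.27 ± 0.10, -0.13 ± 0.11 and -0.12 ± 0.10 in DSS, HMLS and TM (adjusted p = 0.06531, 0.3684 and 0.3934). Gnb2l1 (also called Rack1), the scaffold protein on the small subunit, fell by 0.42 ± 0.12 in DSS (adjusted p = 0.01642) and by 0.39 ± 0.10 in HMLS (adjusted p = 0.01007). Fau was at 0.18 ± 0.13 in DSS (adjusted p = 0.3055). Rps27rt fell in DSS by 0.52 ± 0.11 (adjusted p = 0.004627). Rpl22l1, the paralog of Rpl22, fell by 0.50 ± 0.13 (adjusted p = 0.0141).

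Other genes with a 5′TOP, most of them translation genes, were described beside them. The list also holds Hnrnpa1 and noncoding host genes of small nucleolar RNAs (Gas5 and the Snhg genes). Of the 25 listed genes 2 rose and 4 fell in DSS, 6 rose and 3 fell in HMLS, and 8 rose and 0 fell in TM. The medians were -0.13, 0.08 and 0.20. Eif3m, a subunit of the initiation factor eIF3, fell in DSS (-0.35 ± 0.09, adjusted p = 0.01203), as did Naca, of the nascent chain complex (-0.36 ± 0.10, adjusted p = 0.01736), while Pabpc1, the poly(A)-binding protein, rose (0.52 ± 0.15, adjusted p = 0.02219). Hnrnpa1 rose in HMLS (0.71 ± 0.14, adjusted p = 0.002009) and TM (0.69 ± 0.12, adjusted p = 0.001366). The noncoding Snhg6 rose in HMLS (0.70 ± 0.15, adjusted p = 0.002955) and TM (0.68 ± 0.10, adjusted p = 0.0005215).

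Genes that make and assemble ribosomal RNA were mixed: of 44, 1 rose and 7 fell in DSS, 4 rose and 11 fell in HMLS, and 7 rose and 5 fell in TM. Polr1a, the catalytic subunit of RNA polymerase I, fell in DSS (-0.59 ± 0.12, adjusted p = 0.004297) and HMLS (-0.62 ± 0.12, adjusted p = 0.001957). Nop10, of the pseudouridylation complex, fell in DSS, HMLS and TM (-0.86, -0.84 and -0.77). Ncl, the nucleolar protein nucleolin, rose in all 3 (0.53 ± 0.14, 0.60 ± 0.11 and 0.56 ± 0.11, adjusted p = 0.01108, 0.001458 and 0.002663). Of 25 genes of translation initiation and mTOR control, 3 rose in DSS, 9 in HMLS and 4 in TM, and none fell. Ddit4, an inhibitor of mTOR complex 1, rose by 2.27 ± 0.41, 2.02 ± 0.38 and 2.76 ± 0.29 (adjusted p = 0.002259, 0.002468 and 9.338e-05), and Larp1 by 0.26 ± 0.09 in DSS (adjusted p = 0.04683). Among 11 p53 targets tested, 2 rose and 2 fell in DSS, 4 rose and 1 fell in HMLS, and 2 rose and 2 fell in TM. Cdkn1a, the p21 cell cycle inhibitor, rose in DSS, HMLS and TM (1.92, 1.99 and 1.38). Sesn1 rose in HMLS and TM (1.691 and 1.182) and Trp53inp1 in HMLS (1.015). Ccng1 fell in DSS (-0.478), and Phlda3 fell in DSS and TM (-0.803 and -0.785). Mitochondrial ribosomal protein genes, which serve a separate ribosome, fell in 17, 21 and 13 of 77 cases and rose in 2, 2 and 4 (medians -0.19, -0.19 and -0.16). A difference between the 2 kinds of ribosomal protein gene was not tested.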

How the data were processed

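RNA from 22 colon libraries was analysed. Per the labels' protocols, Trizol was used for extraction and a kit for stranded libraries of total RNA for sequencing. Tools listed in the submitters' processing notes are Cufflinks 2.2.0, TopHat2 2.0.13, Bowtie and bcl2fastq 2.20, with build mm10. The authors deposited a gene table read here as FPKM, because these notes name Cufflinks and the table itself states no unit. The authors also deposited, for each library, the count of reads and the percent mapped. Reads per gene are unknown, so precision rests on the spread between libraries, and p-values measure only that spread, which may be technical, since the labels do not say that each library is a separate mouse.

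Of the libraries in a fit, 4 or more had to reach 1 FPKM for a gene to be tested. limma 3.58.1 (R 4.3.3, trend and robust variance) was run on log2(FPKM + 1), a scale that understates changes of low genes. Genes were called where p, adjusted over all genes tested by Benjamini-Hochberg, was under 0.05. Comparisons with CON used their own 2 groups, and the others 1 fit of the 3 colitis groups. The scripts were tested on simulated data. The named genes were the 5 highest and 5 lowest levels and the 6 largest called changes in each direction. Where fewer than 3 passed, the 3 smallest p in each direction were taken instead. Also named were 2 extremes of spread at each end, a panel of 16, and up to 3 called genes per other list. Rpl34-ps1, Rps3a1, Fau, Rps27rt beyond its difference in DSS, Ncl in DSS, and the genes with groups apart were chosen after their values were seen. Members and lists were chosen with earlier results of these data known. Correlations between libraries of the same replicate number were all positive only in TM vs DSS (0.432, 0.253 and 0.137). In TM vs CON they ranged from -0.003 to 0.203.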

Additional observations from a re-analysis of the deposited data

Results flagged for a closer look

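For 8 of 116 sets of values, those of 28 named genes and of the summed share in each of the 4 groups, 1 library lay far from the others relative to the group's range. Chance gives about 1 in 20. In CON these were Rpl36 in CON 6, the lowest at 397.7 FPKM (next 521.1), and Rps9 in CON 8, the highest at 881.0 FPKM (next 755.3). In DSS they were Rpl35 in DSS 1, the highest at 654.0 FPKM (next 483.6), and 3 genes lowest in DSS 7: Rpl37 at 178.8 FPKM (next 224.5), Rpl39 at 344.3 FPKM (next 499.6) and Rpl9 at 269.1 FPKM (next 378.4). In HMLS it was Rps18 in HMLS 6, the highest at 518.1 FPKM (next 452.4), and in TM it was Rps29 in TM 6, the highest at 1771 FPKM (next 1269).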

How the results depend on the processing

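The median differences from CON kept their sign in DSS and HMLS under every alternative run, and TM lay near 0. In DSS vs CON the falls numbered 56 with all libraries scaled to 1 sum (where 1168 genes of all rose and 2716 fell, against 1889 and 1766, and the median of all genes was -0.12), and 0 with mapped percent as covariate (median -0.066); rises numbered 1 with the 5 FPKM filter and in one fit of all 4 groups. In HMLS vs CON falls numbered 32 with median-ratio scaling (2563 over all genes), 44 with all libraries scaled to 1 sum (2989), 14 in one fit of all 4 groups (1981) and 16 with the covariate (1607), against 21 (2226). Rises there numbered 1 without a filter, with median-ratio scaling or in one fit, and 0 with all libraries scaled to 1 sum or with the covariate. In TM vs CON rises numbered 1 with all libraries scaled to 1 sum and 4 in one fit, and falls 1 with the covariate. With the covariate the median was -0.106 in HMLS vs DSS, -0.015 in TM vs DSS and -0.117 in HMLS vs TM. The cause was not tested.

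In 5 comparisons the correlations between libraries of the same replicate number were not all positive. With a replicate block DSS vs CON gave 13 falls and 1 rise (1051 and 1125 over all genes). HMLS vs CON gave 0 and 0 (434 and 319), and TM vs CON 0 and 0 (914 and 1086). In TM vs DSS 0 of all 13341 genes passed with or without the replicate block, so there was no call to change. Rps27 went to 0.157 there.

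Leaving out 1 library each, DSS vs CON gave 15 to 34 falls, 0 to 2 rises and medians of -0.299 to -0.207. HMLS vs CON gave 15 to 31 falls, 0 to 3 rises and medians of -0.246 to -0.186. TM vs CON gave 0 to 2 falls, 0 to 5 rises and medians of -0.070 to 0.047. Medians were -0.004 to 0.099 in HMLS vs DSS, 0.188 to 0.326 in TM vs DSS and -0.278 to -0.140 in HMLS vs TM. Rps27 ranged from -0.166 to 0.242 in TM vs DSS and from -0.157 to 0.251 in HMLS vs TM. The median share was 8.63 to 8.69% in CON, 6.82 to 6.99% in DSS, 6.79 to 7.08% in HMLS and 7.94 to 8.83% in TM. Without the 20 most abundant other genes it was 10.63, 8.911, 8.976 and 10.20%. Without small RNA genes, mitochondrial genes and Rn45s it was 9.832, 8.004, 8.075 and 9.180%.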
